A study of Mus musculus with 32 samples.

Results

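The early intestinal epithelium of the mouse embryo is described here as the cells that the study labelled epithelial (Epi) in the intestine and placed in its cluster intestine1. There were 55 such cells among the 1916 cells of the series, out of 110 intestinal cells labelled Epi. At embryonic day 9.5 (E9.5), 48 of the 49 intestinal Epi cells belonged to intestine1, with 5 cells from embryo 1, 31 from embryo 2 and 12 from embryo 3. At E10.5, embryo 2 gave 6 further cells and embryo 1 gave a single cell. The series held 7 embryos of the inbred strain C57BL/6J, for which the labels name no transgene or treatment (3 of E9.5, 2 each of E10.5 and E11.5), from which cells of 8 organs had been picked by hand. The comparison groups were the E9.5 Epi cells of liver (35 cells, 3 embryos), lung (15 cells, embryos 2 and 3) and skin (17 cells, embryos 2 and 3), and the 53 cells of the later cluster intestine2 (E10.5 and E11.5). E9.5 embryo 2 was labelled female and the other embryos male, and E9.5 embryos 1 and 2 were sequenced on a HiSeq 2500 and the rest on a HiSeq 4000. In E9.5 embryo 3, skin, intestine and somite were collected in 1 pooled sample, and lung and liver in another, so the organ of those cells is the one in their cell names, which also tell apart the embryos of each E10.5 and E11.5 sample.

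The sex of some cells went against these labels. Xist, the RNA of the inactive X chromosome of females, and 4 Y-linked genes (Ddx3y, Eif2s3y, Kdm5d and Uty) were counted in each organ and embryo. The 5 intestine1 cells of E9.5 embryo 1 had 0 Xist and 119 Y-linked UMIs, the 31 of embryo 2 had 6989 and 0, and the 12 of embryo 3 had 0 and 359, as labelled. The 9 liver epithelial cells of E9.5 embryo 1 had 517 Xist and 2 Y-linked UMIs, unlike the intestine of the same embryo number and against the male label. The 6 intestine1 cells of E10.5 embryo 2, also labelled male, had 545 and 2, and at that stage the liver cells of embryos 1 and 2 had the reverse pattern of the lung and skin cells. Groups were kept as labelled. Without the liver cells of E9.5 embryo 1, the count of genes called below fell from 493 to 378 against the 3 organs, from 855 to 589 against liver, from 169 to 101 against lung and from 415 to 338 against skin.

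The primitive gut is a tube of definitive endoderm wrapped in mesoderm, and its regions become lung, liver, pancreas and intestine under the control of region-specific transcription factors. Caudal-type factors such as Cdx2 specify the intestine, Hox genes of the posterior groups mark the hindgut, and Hedgehog ligands secreted by the endoderm act on the surrounding mesenchyme. At these stages the intestinal epithelium has no villi or differentiated absorptive cells.

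The intestine1 cells held between 28318 and 1681669 unique molecular identifiers (UMIs, each standing for 1 captured transcript), with a median of 408928, and between 3225 and 9325 genes. Embryo 2 of E9.5 was the deepest, with a median of 1047708 UMIs per cell against 241341 in embryo 1. All levels below are log2(TPM/10 + 1), where TPM are UMIs of a gene scaled to 1000000 UMIs of the cell and carry no gene length, averaged over the cells of an embryo. A gene was called expressed in a cell at 1 or more on this scale. Comparisons took the embryo as the replicate, and a gene was called different at an adjusted p under 0.05 (limma, Benjamini-Hochberg over all genes tested) and a difference of at least 1. The Epi label and the clusters came from the study's own grouping of these cells by expression, so the epithelial genes and the split into intestine1 and intestine2 are described, and the tests compare organ and stage labels.

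The 4 markers that name this population were present. Epcam, an epithelial adhesion molecule, and Cldn6, a tight junction claudin of embryonic epithelia, were expressed in 55 of 55 cells. Gpx3, a secreted glutathione peroxidase, was expressed in 54 of 55 cells, although this gene was also expressed in 6 of 6 and 11 of 17 hematopoietic cells of E9.5 embryos 2 and 3. Nepn, a secreted leucine-rich repeat protein known from mid- and hindgut endoderm, was expressed in 46 of 55 cells (83.6%, 95% Wilson interval 71.7 to 91.1%, which covers counting error only) and in 0 of 6 and 0 of 17 hematopoietic cells, which allows shares of up to 50.0% and 17.6%. The single E10.5 embryo 1 cell had Nepn at 6.72 but Gpx3 at 0.44, below the 2.53 or more of every other intestine1 cell. Its 2610528A11Rik was at 0 and its Sox2 at 3.49, levels that single cells of E9.5 embryos 2 and 3 also reached (0 and 3.73). It had 107 Xist UMIs and 1 Y-linked UMI, whereas the 7 intestine2 cells of the same embryo had 10 and 155 in all. It entered no intestine1 mean.

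The largest differences from the other organs at E9.5 were those of Nepn, 2610528A11Rik and Gpx3, and their promoters are shown for that reason. Each runs from 250 bases before to 50 bases after the start annotated by RefSeq (GRCm38.p6), and capitals mark the letters of the motifs searched. Nepn lies at chr10:52391358-52391657 on the forward strand, 2610528A11Rik at chr14:37110052-37110351 on the reverse strand and Gpx3 at chr11:54902604-54902903 on the forward strand.
Nepn: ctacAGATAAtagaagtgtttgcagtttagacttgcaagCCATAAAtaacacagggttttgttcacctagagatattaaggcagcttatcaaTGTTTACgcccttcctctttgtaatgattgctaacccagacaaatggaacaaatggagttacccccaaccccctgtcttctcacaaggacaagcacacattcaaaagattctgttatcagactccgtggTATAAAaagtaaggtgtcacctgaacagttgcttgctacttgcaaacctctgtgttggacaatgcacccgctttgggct
2610528A11Rik: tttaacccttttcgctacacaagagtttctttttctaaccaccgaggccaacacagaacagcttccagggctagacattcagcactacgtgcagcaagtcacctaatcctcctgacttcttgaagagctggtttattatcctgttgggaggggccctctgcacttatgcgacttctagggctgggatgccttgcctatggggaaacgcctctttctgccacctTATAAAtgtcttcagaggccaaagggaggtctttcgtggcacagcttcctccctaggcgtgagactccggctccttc
Gpx3: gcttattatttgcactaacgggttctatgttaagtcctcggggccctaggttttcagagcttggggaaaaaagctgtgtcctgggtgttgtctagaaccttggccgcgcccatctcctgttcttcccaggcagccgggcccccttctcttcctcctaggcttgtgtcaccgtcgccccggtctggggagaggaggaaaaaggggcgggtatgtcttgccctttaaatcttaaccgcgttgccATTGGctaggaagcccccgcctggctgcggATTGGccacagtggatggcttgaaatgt
The letters searched, on both strands, were AGATAA for GATA factors, TGTTTAC for FOXA factors, TTTATNG for CDX factors, TATAAA for a TATA box and CCAAT; a CDX match on one strand can overlap a TATA match on the other. In the Nepn promoter the GATA letters began at position -246 from the start, the CDX letters at -211, the FOXA letters at -158 and the TATA letters at -29. The promoter of 2610528A11Rik held only the TATA letters, at -27, and that of Gpx3 held CCAAT on the reverse strand at -8 and again at 22. The search covered 27025 promoters, a single promoter per gene and not all chromosomes. Of these, 11.4% held the GATA letters, 11.3% the CDX letters, 3.55% the FOXA letters, 14.2% the TATA letters and 37.9% CCAAT. A match is a stretch of letters and not a measured binding site.

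The first question was how the early intestinal epithelium differed from the epithelium of the other organs at the same stage. Relative to the mean of liver, lung and skin, 206 genes were higher and 287 lower in E9.5 intestine1, which was 3.84% of 12848 genes tested (1.60% higher and 2.23% lower). The split differed between methods, since 41.8% of these calls were higher in intestine1 here and 81.9% with edgeR on the summed UMIs (357 higher and 79 lower). With DESeq2 size factors in edgeR it was 82.7%. The cause of the difference between methods was not tested. The median over all genes was -0.07 here and 0.17 with edgeR. In single comparisons, 6.65% of genes differed from liver (292 or 2.27% higher, 563 or 4.38% lower; 56.2% higher with edgeR against 34.2% here), 1.32% from lung (84 or 0.654% higher, 85 or 0.662% lower; 73.5% against 49.7%) and 3.23% from skin (154 or 1.20% higher, 261 or 2.03% lower; 68.1% against 37.1%). With the embryo as a block, the count against lung rose from 169 to 293, or to 252 with the liver cells of embryo 1 taken as a separate animal. Genes higher than in each of the 3 organs numbered 47, and genes lower than in each numbered 17.

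Single embryos decided much of these counts. Of the 10 embryo means in the fit, leaving out 1 changed the count of 493 against the 3 organs to 293 (without intestine embryo 1), 327 (intestine embryo 2), 309 (liver embryo 2) and 264 (skin embryo 2). Against liver the count fell to 481 without liver embryo 2 and 469 without liver embryo 3, and against skin to 202 and 218 without skin embryos 2 and 3. Against lung it was 59 without lung embryo 2 (3 cells) and 429 without lung embryo 3, and between 76 and 105 without either skin embryo or any liver embryo. In each of the 10 fits, Nepn, 2610528A11Rik, Gpx3, Krt19, Cdx2, Hoxb7, Fn1, Cdh1, Cldn3, Foxa1, Dpp4 and Fabp1 were called higher, and Birc5, Cenpa, Ube2c, Id3 and Srm lower; calls that were lost are given beside the genes below.

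Nepn (mm10, chromosome 10) was at 6.65, 3.51 and 7.21 in the intestine1 cells of E9.5 embryos 1, 2 and 3 (mean 5.79 ± 2.0 SD, n = 3). It was at 0 in liver and lung in every embryo and at 0 and 0.37 in skin. The difference from the 3-organ mean was 5.73 (SE 0.57, adjusted p = 8.9e-05). The groups did not overlap, which held for 146 of the 206 genes called higher and was a condition for naming the largest ones. Summed over cells, intestine1 had 16806 Nepn UMIs, while liver had 0 of 27097274 UMIs and lung 0 of 6250517, so that with a floor of 3 UMIs over each group the level was at least 4260-fold higher than in liver and at least 983-fold higher than in lung. Embryo 2 was the lowest of the 3 embryos. Its single cells ranged from 0 to 7.59 (median 3.46), those of embryo 1 from 4.6 to 8.20 (median 7.63) and those of embryo 3 from 5.28 to 10.07 (median 6.87).

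2610528A11Rik, which encodes a secreted ligand of the receptor Gpr15, was at 5.16, 4.94 and 6.84 in intestine1, at 0 in liver and lung, and at 0 and 0.33 in skin (difference 5.59, SE 0.38, adjusted p = 1.7e-06). The intestine was the only one of the 4 organs with more than 13 UMIs of it over all E9.5 epithelial cells. Gpx3 was at 7.68, 7.76 and 6.36 in intestine1. It was at 3.17, 3.30 and 1.92 in liver, 3.64 and 1.61 in lung and 4.49 and 1.80 in skin (difference 4.41, SE 0.56, adjusted p = 0.00041). Its 3 intestinal values lay above all 7 of the others, as the choice of these genes required. The intestinal mesenchyme was at 4.81, 4.57 and 3.66.

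Krt19, a keratin of simple epithelia, was at 6.20, 6.65 and 6.26 in intestine1 against 4.91 and 4.01 in skin and 0.43 to 1.83 in liver and lung (difference 4.05, SE 0.35, adjusted p = 2.6e-05). It was higher than in each organ, including skin (1.91, adjusted p = 0.028). Epcam and Cldn6 were called higher than in liver but not than in lung or skin. Epcam was at 6.88, 6.08 and 6.51 in intestine1, 2.90 to 4.49 in liver, 6.13 and 5.89 in lung and 5.54 and 5.22 in skin, and the difference was 2.75 from liver (adjusted p = 0.0003), 0.48 from lung (adjusted p = 0.64) and 1.11 from skin (adjusted p = 0.18). Cldn6 was at 7.06, 7.24 and 7.25 against 6.98 and 6.35 in lung, and neither its difference from lung (0.52, adjusted p = 0.72) nor that from skin (1.61, adjusted p = 0.14) passed the test. Against the mean of the 3 organs the difference was 1.45 for Epcam (adjusted p = 0.016, called in 7 of 10 fits without 1 embryo) and 1.63 for Cldn6 (adjusted p = 0.040, called in 3 of 10). Cldn6 was not called with edgeR (1.26, adjusted p = 0.078).

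**Figure D1:**
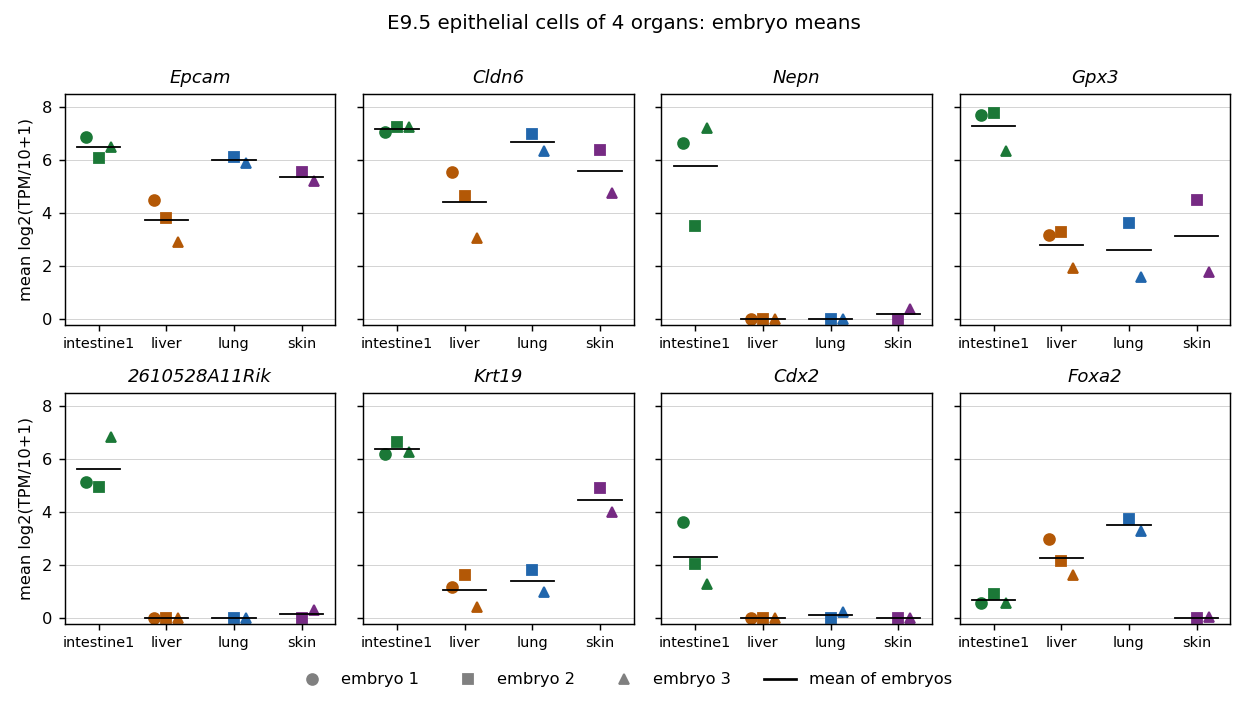
Mean level, log2(TPM/10 + 1), of leading genes in E9.5 epithelial cells of intestine (intestine1), liver, lung and skin, with 1 point per embryo. Nepn and 2610528A11Rik were at 0 in liver and lung and at 3.51 or more in the 3 intestinal embryos, whereas Epcam and Cldn6 in lung lay close to the intestine.

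Of the 10 largest increases against the 3 organs, the other 6 were Prss23, Map1b, Upk1a, 1700011H14Rik, Sat1 and Cpne8, with differences from 3.15 to 3.57. Map1b, a microtubule-associated protein best known from neurons, was at 6.90, 6.82 and 6.17 in intestine1 and at most 4.41 in any other organ. Upk1a, a uroplakin of the urothelium, was at 4.52, 4.34 and 2.04 in intestine1 and no higher than 0.24 elsewhere. Sat1, which acetylates spermidine and spermine, was at 3.97, 4.6 and 5.08 (difference 3.19), while Srm, which makes spermidine, was among the largest decreases at 1.31, 2.34 and 1.47 in intestine1 against 2.60 to 5.77 in the other organs (-2.57, adjusted p = 0.001). Cpne8 varied between embryos, at 1.52, 5.2 and 4.13.

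Of the 27 epithelial adhesion and keratin genes listed, 26 passed the filter on low values. Of these, 6 were higher in intestine1 and none was lower (median difference 0.78 against -0.07 over all genes, and 1.60% of all genes higher). The 6 were Epcam, Krt19, Cldn6, Cdh1, Cldn3 and Cldn4. Cdh1, which encodes E-cadherin, was at 3.93, 3.83 and 3.95 in intestine1 (difference 1.54, adjusted p = 0.0055). In single comparisons, 13 of the 26 were higher than in liver, 1 than in lung and 2 than in skin (2.27%, 0.654% and 1.20% of all genes). The count of 6 fell to 3 without intestine embryo 1 and without skin embryo 3, and Cldn4 was called in 5 of 10 such fits. Krt8 and Krt18, the other keratins of simple epithelia, were at 6.44 to 7.48 in intestine1 and did not pass the test (0.73, adjusted p = 0.27, and 0.81, adjusted p = 0.24).

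Among 27 gut endoderm transcription factors listed, 22 were tested and 5 were higher, among them Cdx2, Osr2, Foxa1 and Prdm1, while Foxa2 was lower. The shares of all genes were 1.60% higher and 2.23% lower. Cdx2, the caudal factor that specifies intestine, was at 3.62, 2.06 and 1.29 in intestine1 and at 0 elsewhere except 0.23 in the lung of embryo 3 (2.28, SE 0.36, adjusted p = 0.002). Foxa1, a pioneer factor of endoderm, was at 3.18, 3.61 and 2.73 against 3.0 and 2.60 in lung, 1.24 to 1.70 in liver and 0 and 0.02 in skin. Its relative Foxa2 was at 0.57, 0.90 and 0.56 in intestine1 but at 3.75 and 3.31 in lung and 1.62 to 3.0 in liver. The difference of Foxa2 from the 3-organ mean (-1.26, adjusted p = 0.042) turned to 0.35 with edgeR and 0.43 with DESeq2, and was called in 2 of 10 fits without 1 embryo, while that from lung was -2.85 (adjusted p = 0.0046). Prdm1, a repressor known to keep the embryonic intestine immature, was at 0.45, 2.0 and 1.41 and no higher than 0.02 in the other organs (1.29, adjusted p = 0.0055).

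Sox17, Pdx1 and Hoxa13 were at 0 in all 3 embryos. Of 16 factors of other endoderm organs, 7 were tested and none was called by limma, edgeR or DESeq2, with 3 lower at an unadjusted p under 0.05 in limma. Nkx2-1, the lung and thyroid factor, was at 0 to 0.12 in intestine1 against 2.67 and 3.22 in lung (-2.88 in that comparison). Hepatoblast genes were detected, although 1 of them, Afp, was also expressed in 0 of 6 and 15 of 17 hematopoietic cells of E9.5 embryos 2 and 3. The summed TPM of these genes was 315, 858 and 997 in intestine1 against 9225, 14674 and 18994 in liver, and 9 of 10 were lower than in liver. Afp, a fetal liver and yolk sac serum protein, was at 0.95, 4.01 and 5.53 in intestine1 and at 8.55 to 9.91 in liver. The lowest relative to liver were Apoa2 (-7.51), Fgb (-6.37), Apoa1 (-6.32) and Afp (-5.56).

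Hox genes showed how the embryos differed from each other. Of 39 listed, 24 were tested and 2 were higher than in the 3 organs with none lower, namely Hoxb7 (1.85, 1.30 and 1.37 in intestine1, difference 1.49, adjusted p = 0.00024) and Hoxc9 (1.90, 0.54 and 0.93, difference 1.09). By the same limma test 1.60% of all genes were higher. With edgeR 12 of the 24 were called higher and with DESeq2 17. Hoxa10, a gene of the posterior trunk, was at 3.73 in embryo 1, 0.01 in embryo 2 and 0.81 in embryo 3, and its difference did not pass the test (1.5, adjusted p = 0.10). The odd-skipped factor Osr2 ran the other way at 0, 4.28 and 2.31 (2.16, adjusted p = 0.039, called in 2 of 10 fits without 1 embryo).

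The same contrast was seen in single cells. In embryo 1, 5 of 5 cells expressed Hoxa10 and Cdx2 and 0 of 5 expressed Osr2 (which allows a share of up to 60.0%). In embryo 2, 0 of 31 cells expressed Hoxa10 (up to 9.68%), while 30 expressed Osr2 and 21 Cdx2. In embryo 3, 5 of 12 cells expressed Hoxa10 and 9 of 12 Osr2, with 4 cells expressing both and 1 cell Hoxa10 without Osr2. The 6 E10.5 cells of embryo 2 were like those of E9.5 embryo 2, with Osr2 in 6 of 6 and Hoxa10 in 0 of 6. After each cell was thinned to 100000 UMIs, which left out 2 cells of embryo 2 and 2 of embryo 3, the shares for Osr2 were 0 of 5, 28 of 29 and 8 of 10 and those for Hoxa10 were 5 of 5, 0 of 29 and 4 of 10. In hematopoietic cells of the same E9.5 embryos, Osr2 was expressed in 0 of 6 and 1 of 17 cells and Hoxa10 in none.

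**Figure D2:**
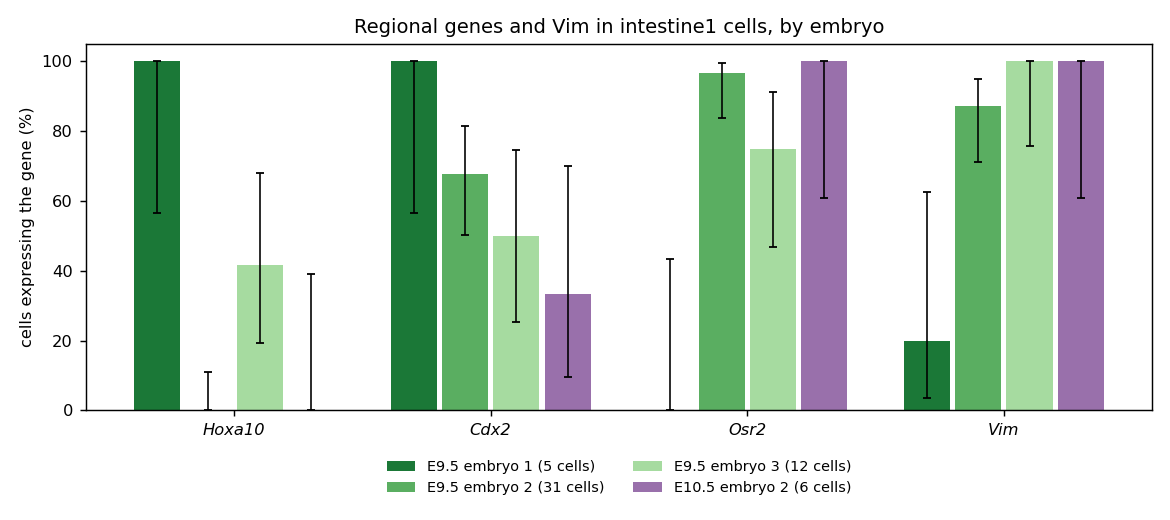
Percentage of intestine1 cells expressing Hoxa10, Cdx2, Osr2 and Vim in each embryo with at least 3 cells, with 95% Wilson intervals as whiskers. Hoxa10 was expressed in 5 of 5 cells of E9.5 embryo 1 and in 0 of 31 of embryo 2, and Osr2 in 0 of 5 and 30 of 31.

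The intestinal mesenchyme differed between the same embryos. Hoxa10 was at 3.97, 0.10 and 3.38 in the mesenchyme of E9.5 embryos 1, 2 and 3, and Hoxc10 at 4.03, 1.10 and 3.98. Embryo 2 was the lowest for Hoxa10 in both tissues, while embryo 3 lay near embryo 1 in the mesenchyme and nearer embryo 2 in the epithelium. Embryo 2 was also the 1 female among the E9.5 intestines, and embryo and sex cannot be told apart there. The labels do not state which stretch of gut was dissected from each embryo. The 3 intestine1 embryo means correlated at r = 0.906, 0.896 and 0.931 across genes (genes are not independent replicates), with 148 genes differing by over 2 between embryos 1 and 2, 176 between embryos 1 and 3 and 70 between embryos 2 and 3.

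Mesenchymal genes were present in the same cells as epithelial genes, but unevenly. Vim, which encodes the intermediate filament vimentin, was at 0.33, 4.13 and 3.89 in intestine1, and 1 of 5, 27 of 31 and 12 of 12 cells expressed it. Over all embryos 46 of 55 cells expressed Epcam and Vim together (83.6%, Wilson interval 71.7 to 91.1%), compared with 44 of 45 E11.5 intestine2 cells. Vim was expressed in 2 of 6 and 9 of 17 hematopoietic cells. The difference of Vim from the 3 organs did not pass the test (0.84, adjusted p = 0.53), whereas Fn1, the matrix protein fibronectin, was at 5.85, 4.48 and 5.79 and higher than their mean (2.42, adjusted p = 0.0019). Of 8 mesenchymal genes scored by the study, 7 were tested, and Fn1 was the 1 called (1.60% of all genes were higher and 2.23% lower). The mean of this M-score list was 1.19, 1.61 and 1.64 in E9.5 intestine1, 1.65 in E10.5 intestine1 and 1.35 to 1.38 in intestine2. It was 1.09 to 1.48 in liver, 0.48 and 0.72 in lung, 1.04 and 1.65 in skin and 2.42 to 3.45 in intestinal mesenchyme, so that liver and skin overlapped with intestine1. The matching E-score list was at 0.84, 0.90 and 0.81 in E9.5 intestine1 and at 0.68 to 0.72 in intestine2, with skin (0.76 and 0.85) overlapping, lung at 0.64 and 0.79 and liver at 0.35 to 0.46. Against the mean of the 3 organs, none of 6 EMT-inducing transcription factors was called by limma, edgeR or DESeq2, and 1 was lower at an unadjusted p under 0.05, while 1 was called lower than in skin.

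Markers of other cell types were also measured in these cells. The summed TPM of 16 mesenchyme markers was 326, 88.4 and 681 in intestine1 embryos 1, 2 and 3, 15.1 to 128 in the other epithelia, and 1235 to 2852 in intestinal mesenchyme. The 1 of these called higher was Postn, which encodes periostin (2.08, 0.99 and 5.30 in intestine1, difference 2.32, adjusted p = 0.042, called in 2 of 10 fits without 1 embryo). The 14 blood markers summed to 5.98, 133 and 21.6 in E9.5 intestine1, against 1782 and 638 in lung. In the intestine1 cells of E10.5 embryo 2 they summed to 2522. The adult globins listed (Hba-a1, Hba-a2 and Hbb-bt) were at 0 in all of these groups. The study counted only uniquely mapped reads, so that reads that map to several places are lost, and these values do not show absence. Tal1 and Ptprc were at 0 in E9.5 intestine1 and also in the lung of embryo 2. Embryonic globins were the largest decreases against lung (Hbb-y -4.83, Hba-x -4.27 and Hbb-bh1 -3.45). Endothelial markers summed to 17.4 to 36.7 in E9.5 intestine1 and 45.0 to 249 in the other epithelia. Their part in the differences was not tested.

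Of the signalling genes, both Hedgehog ligands of the gut were higher in intestine1 than the mean of the 3 organs, but Shh was not higher than in lung (-0.12, adjusted p = 0.96). Shh was at 3.54, 2.10 and 2.33 in intestine1, 3.85 and 1.72 in lung, and at most 0.02 in liver and skin (1.72, adjusted p = 0.030, called in 3 of 10 fits without 1 embryo). Ihh was at 1.15, 0.80 and 1.18 in intestine1 and no higher than 0.15 elsewhere (1.01, adjusted p = 0.00084, called in 7 of 10), and 17 of 55 cells expressed both ligands. Their receptor Ptch1, a target that rises where the pathway is active, was at 0, 0.15 and 0.22 in intestine1 and 0.28, 0.52 and 0.66 in the neighbouring mesenchyme. Shh and Ihh were the 2 called of 12 Hedgehog genes tested, while 1.60% of all genes were higher.

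The BMP targets Id1 and Id3, inhibitors of differentiation factors, were both lower and were the 2 called of 15 BMP and TGF-beta genes. For this and the next lists, the shares of all genes were 1.60% higher and 2.23% lower. Id1 was at 3.06, 1.05 and 1.29 in intestine1 against 3.19 to 5.27 in the other epithelia (-2.51, adjusted p = 0.0074), and Id3 at 2.56, 3.56 and 2.02 against 3.26 to 6.45 (-2.62, adjusted p = 0.006). Id1 was also higher in the intestinal mesenchyme, at 5.35, 4.72 and 2.86. Of 26 Wnt genes, the receptor Lgr4 was higher (1.27) and Wnt6 (-2.01) and Fzd7 (-1.18, called in 0 of 10 fits without 1 embryo) lower. Wnt6 was at 5.52 and 5.70 in skin and near 0 in intestine1. None of 11 FGF, 14 retinoic acid or 9 Notch and secretory lineage genes was called by limma, with 1, 5 and 2 of them at an unadjusted p under 0.05. The counts called were 0, 2 and 1 with edgeR and 1, 3 and 1 with DESeq2.

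A few genes of absorptive cells were already detected. Of 33 listed, 21 were tested, of which Dpp4, Fabp1 and Tff3 were higher and Apoa1 lower (1.60% of all genes were higher and 2.23% lower). Of these, Tff3 is better known from secretory goblet cells than from absorptive cells. Dpp4, a brush border peptidase, was at 2.46, 3.76 and 2.80 in intestine1 and at most 1.19 elsewhere (2.47, adjusted p = 0.00087). Fabp1, a fatty acid binding protein of liver and intestine, was at 2.98, 2.62 and 2.16 against 0.29 to 1.58 in liver and 0 to 0.04 in lung and skin (2.30, adjusted p = 0.00095). The immediate early genes Jun (5.38, 4.52 and 3.43, difference 1.96) and Egr1 (3.41, 2.23 and 2.80, difference 1.76) were the 2 called higher of 11 stress response genes tested.

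Genes of the mitotic phase were lower in intestine1 than in the other epithelia. Of 54 G2/M genes, 19 were lower and none was higher (median difference -1.40 against -0.07 over all genes, and 2.23% of all genes lower). Cdk1, the mitotic kinase, was at 0.88, 1.97 and 3.48 in intestine1 against 4.22 to 4.92 in liver, 4.15 and 5.68 in lung and 3.85 and 5.71 in skin (-2.68, SE 0.52, adjusted p = 0.0074). These values did not overlap, which held for 202 of the 287 genes called lower and was a condition for naming the largest decreases. Birc5, a subunit of the chromosomal passenger complex, was at 3.34, 2.92 and 2.68 against 4.91 to 5.60 elsewhere (-2.30, SE 0.28, adjusted p = 0.00029). Ube2c (-2.66), Top2a (-1.94), Cenpa (-1.85) and Mki67 (-1.77) were also lower, though Top2a was called in 5 and Mki67 in 3 of 10 fits without 1 embryo. On the summed UMIs none of these 4 was called by edgeR or DESeq2 (with DESeq2 -0.90, -0.98, -0.36 and -0.85, adjusted p = 0.58, 0.16, 0.60 and 0.31). Birc5, Cenpa, Ccna2, Cdca3, Smc4 and Mad2l1 were among the 17 genes lower than in each organ.

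The size of this group differed between methods. On the summed UMIs, 2 of the 54 genes were called lower by edgeR and 5 by DESeq2, with medians of -0.69 and -0.67, or -0.86 and -0.85 relative to the median of all genes. Birc5 was still lower by both tools (-1.10, adjusted p = 0.030 in edgeR, and -1.07, adjusted p = 0.00051 in DESeq2), whereas Cdk1 was not (-1.37, adjusted p = 0.21, and -1.35, adjusted p = 0.10). With the embryo as a block 29 genes were lower, or 13 with the liver cells of embryo 1 as a separate animal. The count of 19 became 7 without intestine embryo 1, 8 without intestine embryo 2, 10 without skin embryo 3 and 35 without lung embryo 3. In single cells, 25 of 48 E9.5 intestine1 cells expressed Cdk1 (52.1%, Wilson interval 38.3 to 65.5%), with 1 of 5, 15 of 31 and 9 of 12 by embryo, whereas 6 of 6 and 16 of 17 hematopoietic cells and 40 of 45 E11.5 intestine2 cells did. Counted from 1 UMI, 41 of the 48 cells (85.4%) and 44 of 45 E11.5 intestine2 cells held Cdk1.

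The averages over the list followed the same order. The mean level of the G2/M list was 1.85, 1.92 and 2.39 in intestine1, 2.87 to 4.29 in lung, 3.23 and 3.67 in skin and 2.89 to 3.66 in liver. In intestinal mesenchyme it was 3.15, 3.45 and 2.19, so that the mesenchyme of embryo 3 overlapped with the epithelium. Of 43 G1/S genes, 3 were lower, among them Rrm2 and Exo1, and none was higher (median -0.59, with 2.23% of all genes lower). The G1/S mean was 2.04 to 2.27 in intestine1 at E9.5 and 2.5 to 3.10 in the other E9.5 epithelia, without overlap. Other large decreases were 2810417H13Rik, a PCNA-binding factor of replication (-2.49), Spc25, a kinetochore protein (-2.49), Cited1 (-2.56), Tmem97 (-2.43), Hacd1 (-2.42) and Pgp (-2.40).

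**Figure D3:**
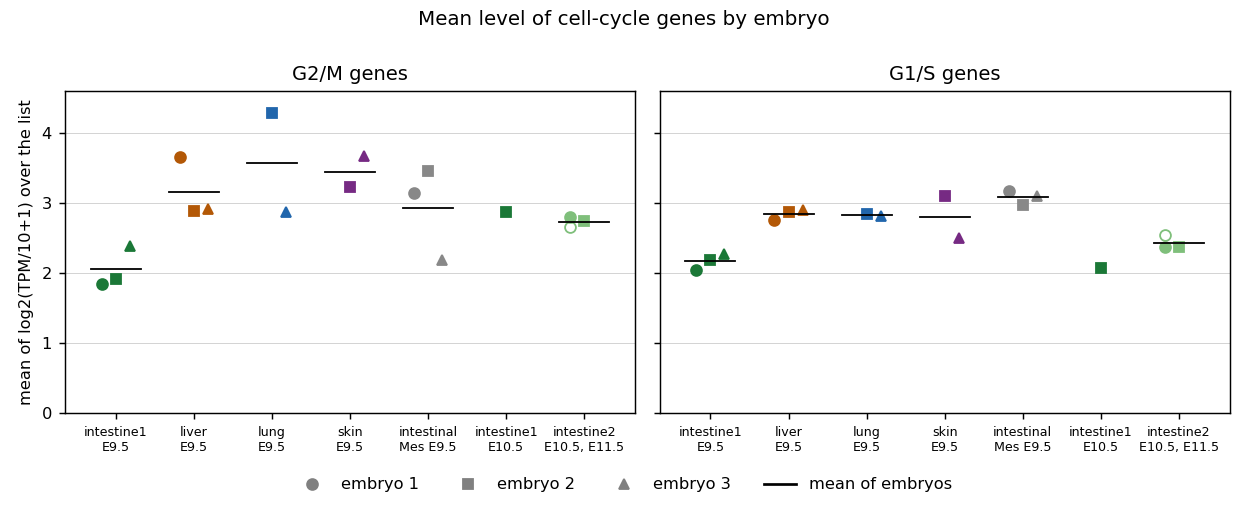
Mean level, log2(TPM/10 + 1), of the G1/S and G2/M gene lists by embryo in intestine1, intestine2, the E9.5 epithelia of liver, lung and skin, and the E9.5 intestinal mesenchyme, with 1 point per embryo and an open circle for E10.5 embryo 1 in intestine2. The 3 E9.5 intestine1 values of the G2/M list, 1.85 to 2.39, lay below every value of the other E9.5 epithelia.

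The second question was what changed in the intestinal epithelium between E9.5 and E11.5. By stage label, with all intestinal Epi cells, 24 genes were higher at E9.5 and 13 lower, 0.299% of 12387 genes tested (0.194% higher and 0.105% lower). None of them overlapped between the stages, which the choice by difference and adjusted p makes likely with so few embryos. The share of higher calls was 64.9% here and 81.8% with edgeR. With only 2 embryos at E11.5 the test was narrow, since leaving out either of them left 1 embryo at that stage and no spread within it. The calls between stages, including those of the genes named below, rest on both of these embryos. They also rest on the gene filter, without which 0 of 15635 genes were called. E9.5 embryos 1 and 2 were sequenced on a HiSeq 2500 and all later embryos on a HiSeq 4000. The HiSeq 4000 embryos alone therefore held only embryo 3 at E9.5, and stage and sequencer cannot be fully told apart. With all embryos, 1170 genes were at an unadjusted p under 0.05 by limma. Without E9.5 embryos 1, 2 and 3 in turn, 10, 19 and 77 genes were called.

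Nepn fell from the levels above to 0.24 and 0.01 in the 2 E11.5 embryos (difference 5.52, SE 0.75, adjusted p = 0.0069), and 2 of 45 E11.5 intestine2 cells expressed it (4.44%). Gpx3 fell to 2.30 and 3.04 (4.43, adjusted p = 0.0069). Gpc3, a glypican that restrains fetal growth, was at 7.16, 6.84 and 7.39 in E9.5 intestine1 cells and at 4.33 and 4.36 at E11.5 (2.75, adjusted p = 0.0022). The membrane-binding protein Anxa5 was at 4.95, 5.84 and 4.94 and fell to 1.38 and 1.64 (3.75, adjusted p = 0.0069). Cald1, an actin-binding protein, was higher at E9.5 by 3.46, the glucose transporter Slc2a3 by 3.37, Jun by 3.12, Map1b by 2.93, Klf6 by 2.75 and Fhl1 by 2.69. Krt19 was also higher at E9.5 (2.38, adjusted p = 0.021), whereas 2610528A11Rik, at 3.68 and 2.08 at E11.5, did not pass the test (2.65, adjusted p = 0.23).

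Of the genes that were lower at E9.5, Lgals2, a galectin of the gut epithelium, differed most and was at 0, 3.12 and 0.41 in E9.5 intestine1 cells and at 6.89 and 6.72 at E11.5 (-5.64, SE 0.79, adjusted p = 0.0069). Isx, an intestine-specific homeobox factor, was at 0, 1.12 and 0.43 and rose to 3.77 and 3.43 (-3.09, adjusted p = 0.0069). Embryo 2 had the highest E9.5 level of both. Lect2 (-2.80), Cib2 (-2.90), Tspan8 (-2.66), Ugt2b34 (-2.63), Msmo1 (-2.61), Idh3a (-2.57) and Fam183b (-2.43) were others of the 10 largest.

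Limma called 0.194% of all genes higher at E9.5 and 0.105% lower, so that the lists with no gene called are near that share. By list, 1 of 22 gut endoderm factors tested was lower at E9.5 (Isx) and none of 24 enterocyte genes was called. Of the latter, 11 were lower at an unadjusted p under 0.05 (edgeR called 0 and DESeq2 called 4 lower). Of 17 basement membrane genes, Npnt (2.57) and Sparc (2.59) were higher at E9.5. With edgeR none of these 17 genes or of the 22 gut endoderm factors was called. DESeq2 called 2 of the 17 higher and 2 of the 22 lower. Among pathway genes, the Wnt target Sp5 was lower (-2.08), and Id3 (2.58) and the FGF feedback phosphatase Dusp6 (2.01) were higher. Jun and Fos were the 2 of 11 stress response genes that were higher. None of 24 Hox genes was called by limma or edgeR and 12 were higher at E9.5 by DESeq2, with 11 at an unadjusted p under 0.05 in limma. None of 54 G2/M genes was called by limma or edgeR and 1 was lower by DESeq2 (median -0.65, with 16 lower at an unadjusted p under 0.05 in limma).

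The third question was whether these changes differed from those of the other organs. For each gene the change from E9.5 to E11.5 in intestinal epithelium was set against the mean change in liver, lung and skin. It was more positive for 92 genes and more negative for 45, which was 0.975% of 14058 genes tested (0.654% and 0.320%; 67.2% more positive here and 37.5% with edgeR, which called 24 genes in all). Nepn fell by 5.52 in the intestine and its mean change in the other organs was -0.06, a difference of -5.46 (adjusted p = 0.0024). Gpc3 fell by 2.75 in the intestine against -0.15 in the other organs (-2.60, adjusted p = 0.0012), and Anxa5 and Cald1 likewise had larger falls (-4.23 and -3.17). The change of Gpx3 did not differ from that of the other organs by the test (-2.93, adjusted p = 0.14).

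Lgals2 rose more in the intestine (5.27, adjusted p = 0.0024), as did Isx (3.09, adjusted p = 7e-05) and Hnf4g, a nuclear receptor of the intestinal epithelium (1.76, adjusted p = 7e-05). On the summed UMIs, edgeR and DESeq2 called none of the 23 gut endoderm factors tested, Isx and Hnf4g among them. Nor did edgeR call any of the 4 markers, Nepn among them. Of 54 G2/M genes, 3 had a more positive change in the intestine (Hmgb2 2.08, Birc5 2.76 and Rangap1 2.34) and none a more negative one. The shares of all genes were 0.654% and 0.320%. The change of Birc5 was 1.27 in the intestine, which did not pass the test between stages, and its mean change in the other organs was -1.49. Liver had 1 embryo with enough cells at E11.5, embryo 2. The total of 137 genes became 28 and 31 without intestine E11.5 embryos 1 and 2, 90 without liver E9.5 embryo 2, 83 without either skin E11.5 embryo, 85 without skin E9.5 embryo 2 and 214 without lung E11.5 embryo 2. Nepn, Gpc3, Lgals2, Isx and Hnf4g were called in each of the 16 fits without 1 embryo, and Birc5 in 4 of 16.

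**Figure D4:**
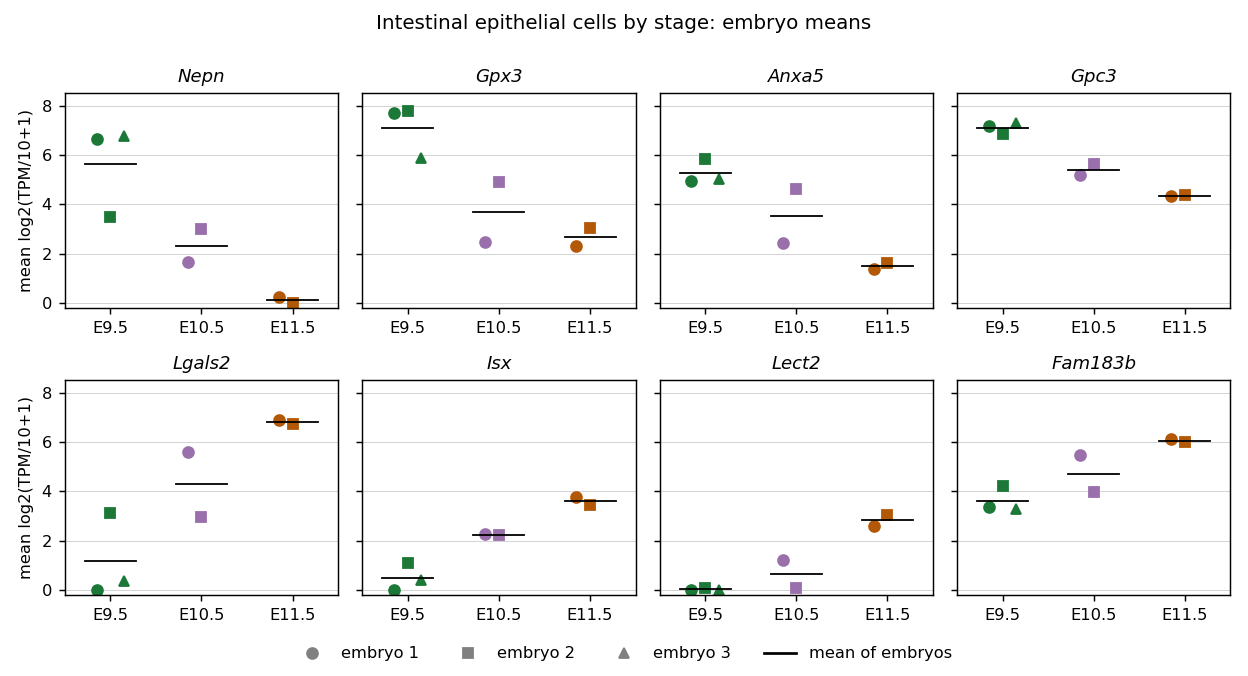
Mean level, log2(TPM/10 + 1), of stage-dependent genes in all intestinal epithelial cells of each embryo at E9.5, E10.5 and E11.5. Nepn, Gpx3, Anxa5 and Gpc3 were higher at E9.5 and Lgals2, Isx and Lect2 at E11.5, and Gpx3 was at 2.48 and 4.90 in the 2 E10.5 embryos.

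At E10.5 the cluster and the embryo nearly coincided, since 7 of 8 epithelial cells of embryo 1 were in intestine2 and 6 of 7 of embryo 2 in intestine1. Cluster and embryo therefore cannot be told apart at E10.5. To place the embryos, 76 genes were taken that differed between E9.5 and E11.5 in a fit without the E10.5 embryos, and each embryo was positioned from 0 (the E9.5 mean) to 1 (the E11.5 mean). The median position was 0.76 for embryo 1 (quartiles 0.55 to 0.95) and 0.42 for embryo 2 (quartiles 0.16 to 0.67). Embryo 2 lay nearer E9.5 than embryo 1 did for 59 of the 76 genes. Without the intestine1 cell of embryo 1 its median was 0.83, with 59 of 76 genes again. The order was not the same in the other tissues of these embryos, with 0.51 and 0.56 in lung epithelium (23 genes), 0.46 and 0.55 in skin epithelium (309 genes) and 0.70 and 0.70 in intestinal mesenchyme (41 genes). All 31 intestinal cells of E10.5 embryo 1 together held 332 Xist and 479 Y-linked UMIs, of which its epithelial cells held 117 and 156. Within the epithelium, the single intestine1 cell held 107 Xist and 1 Y-linked UMIs, and the 7 intestine2 cells held 10 and 155. Cells of both sexes may therefore carry this embryo label, in the epithelium as well as outside it, which was not tested.

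The positions differed by gene. Gpx3 was at 2.48 in E10.5 embryo 1 and 4.90 in embryo 2, Anxa5 at 2.45 and 4.63, and Fn1 at 2.76 and 5.62. Lgals2 was at 5.59 and 2.98, and Lect2 at 1.22 and 0.08. Isx was nearly the same in both, at 2.26 and 2.24, as was Gpc3 at 5.17 and 5.62. The G2/M mean of the 6 intestine1 cells of E10.5 embryo 2 was 2.87, above the E9.5 values and close to the 2.66 to 2.81 of intestine2.

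As a description of the clusters themselves, 186 of 12387 genes were at least 1 higher and 153 at least 1 lower in intestine1 than in intestine2 without overlap between embryos. The largest differences toward intestine1 were those of Nepn (4.59), Gpx3 (3.94), Anxa5 (3.30), Vtn (3.22), Slc2a3 (3.17) and Cald1 (3.16), and those toward intestine2 were Lgals2 (-5.11), Cib2 (-2.51), Cdkn1a (-2.50) and Plac8 (-2.49). Vtn encodes vitronectin and Cdkn1a the cell cycle inhibitor p21. Epcam, Cldn6 and Shh continued in intestine2, with Epcam at 6.05 to 6.67, Cldn6 at 6.43 to 6.75 and Shh at 3.19 to 3.83.

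Over the 10 E9.5 epithelial embryo means of the 4 organs, the genes whose levels were most like the mean of the 4 markers were Rab31 (Pearson r = 0.958), Mageh1 (0.956), BC030870 (0.949), Enpp2 (0.941), Dtx3 (0.940), Angptl2 (0.940), Map1b (0.939), Gimap8 (0.932), Hoxc8 (0.932) and Kbtbd11 (0.931). These 10 points share embryos and libraries, and the values are given as a description. The markers themselves had r of 0.837 to 0.925 with their own mean.

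Promoter letters were counted in the genes that set the intestine apart from each other organ. Of the 47 genes higher than in each of the 3 organs, 32 had a promoter among those searched. Of these, 7 held the TATA letters (21.9%, against 14.2% of all promoters searched), 5 the GATA letters (15.6%), 3 the CDX letters (9.38%), 2 the FOXA letters (6.25%) and 7 CCAAT (21.9%). Of the 17 genes lower than in each organ, 12 had a promoter among those searched. Of these, 6 held CCAAT (50.0%, against 37.9% of all searched), 1 the GATA letters and none the TATA, CDX or FOXA letters. Nepn was the 1 promoter among the 32 with GATA, CDX and FOXA letters together. The counts are small and are descriptions.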

How the data were processed

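Single cells of mouse embryonic organs were dissociated with trypsin, picked by hand and sequenced with a modified STRT protocol that reads the 3' end of transcripts with UMIs. The authors processed the reads with CASAVA 1.8, TopHat2 2.0.12 and HTSeq on mm10 (the HTSeq version and the annotation are not given in the sources used here) and deposited UMI counts divided by the total of the cell, which they named TPM and which are CPM with no gene length. Whole UMIs were recovered from these deposited values (100% of values above 0 in 969 cells of the 4 organs, tolerance 0.05 UMIs; 0 columns were left unmapped), and all 23154 genes were read.

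Cell type and cluster labels were those of the study's supplementary file. Members and gene lists were chosen with earlier results of these data known. Levels were log2(TPM/10 + 1), averaged over at least 3 cells per embryo. Genes that reached 1 in 3 or more cells of a comparison entered limma 3.58.1 (R 4.3.3, trend, Benjamini-Hochberg). Called genes had an adjusted p under 0.05 and a difference of at least 1. The text names members of the fixed lists, the 10 largest calls in each direction without overlap between groups, the 5 largest per organ contrast, and the 10 genes most like the markers. A few genes that meet this rule are not reported here. Alternatives were log2(TPM + 1), no gene filter, at least 5 cells per mean, thinning to 100000 UMIs, edgeR 4.0.16 and DESeq2 1.42.0 on summed UMIs, 1 sequencer only, each embryo left out, and the embryo as a block. Tests were also run on simulated cells, with the same spread between embryos in every group. The groups here differ in spread, so that the simulation does not bear on the p-values of single genes, and no result is drawn from it.

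By the labels, organs with 1 embryo number share an animal, and their deviations from the organ means correlated at 0.083 to 0.246 (13 pairs) within an embryo number and at -0.246 to 0.127 (24 pairs) between them. The lowest of these was the pair of intestine and liver of E9.5 embryo 1, whose Xist and Y-linked UMIs differed, and without that liver the 12 pairs gave 0.144 to 0.246. A block with that liver as a separate animal, and the E10.5 position without 1 cell, were added after the data were seen. The p-values measure the spread between embryos, pooled over all groups of a fit. For genes near 0 in the other organs, such as Nepn and Cdx2, those groups have little spread and lower the pooled SE. Their SE and p-values therefore understate the spread between the intestinal embryos. Intervals and floors (3 UMIs) cover counting error only. A level at 0 in an intestine1 embryo mean allows up to 2.32, 0.0953 and 1.05 TPM in E9.5 embryos 1, 2 and 3.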

Additional observations from a re-analysis of the deposited data

Results flagged for a closer look

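The change from E9.5 to E11.5 in the intestinal epithelium differed from the mean change in liver, lung and skin epithelium for 137 genes, by the interaction contrast in limma. Among the genes named in the report, those with a more negative change in the intestine were Nepn (-5.46), Anxa5 (-4.23), Cald1 (-3.17), Jun (-2.95), 2610528A11Rik (-2.70) and Gpc3 (-2.60). Those with a more positive change were Lgals2 (5.27), Fam183b (3.86), Idh3a (3.38), Isx (3.09), Cib2 (3.08), Srm (2.60), Tspan8 (2.58), 2810417H13Rik (2.58), Pgp (2.32) and Ugt2b34 (1.79). Srm, Pgp and 2810417H13Rik were also lower in intestine1 than in the 3 organs at E9.5. On the summed UMIs, Nepn was not called with edgeR, and Isx was called with neither edgeR nor DESeq2. Nepn, Gpc3, Lgals2, Isx and Fam183b were called in all 16 fits without 1 embryo, whereas Pgp was called in 3, Ugt2b34 in 4, Tspan8 in 5 and Srm in 7. No group had 4 or more embryos, so that no embryo could be tested as an outlier.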

How the results depend on the processing

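Counts of genes called moved most. Against the 3 organs (493), log2(TPM + 1) gave 861, no gene filter 238, DESeq2 927 and the HiSeq 2500 embryos 96, and leaving out embryos 264 to 671. Against liver (855) the counts were 1425, 536 without a filter, 564 with edgeR and TMM, 249 for HiSeq 2500 and 469 to 1027. Against lung (169) they were 289, 52 without a filter, 59 with at least 5 cells, 103 thinned, 68 and 76 with edgeR (TMM and DESeq2 size factors), 463 with DESeq2, 293 with the replicate block, 29 for HiSeq 2500 and 59 to 429. Against skin (415) they were 259 without a filter, 204 and 217 with edgeR, 736 with DESeq2, 92 for HiSeq 2500 and 202 to 498. Between E9.5 and E11.5 (37) they were 81, 0 without a filter (1305 at an unadjusted p under 0.05), 23 thinned, 302 with DESeq2, 0 in HiSeq 4000 embryos and 0 to 77. For the change in intestine against other organs (137) they were 237 without a filter, 208 with at least 5 cells, 91 thinned, 24 and 25 with edgeR, 24 in HiSeq 4000 embryos and 28 to 214. The lower G2/M genes (19) numbered 36, 5 without a filter, 2 and 2 with edgeR, 5 with DESeq2, 29 with the replicate block, 12 for HiSeq 2500 and 7 to 35, with 0 higher in each of these settings. The higher epithelial genes (6) numbered 3 without a filter, 1 for HiSeq 2500 and 3 to 7. The cause was not tested. The replicate block, which paired organs of 1 embryo number, moved no other of these counts by over 1.5 times, and with the liver of E9.5 embryo 1 as a separate animal the block moved none of them by over 1.5 times (505, 917, 252, 485, 121, 13 and 6).

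Directions turned for Foxa2 (0.35, 0.35 and 0.43), Fgb (0.71, 0.74 and 0.82) and Alb (0.36 and 0.35) against the 3 organs with edgeR by TMM and size factors and, for the first pair, DESeq2, and for Tspan8 in the change between organs (-0.047 and -0.19 with edgeR). Of the genes named or listed, 71 of 74 against the 3 organs, 82 of 82 against liver, 33 of 33 against lung, 67 of 67 against skin, 27 of 27 between stages and 31 of 32 between organs kept their direction in all alternatives. Counting a cell from 1 UMI, 96.8% rather than 80.6% of E9.5 embryo 2 cells held Nepn and 100% rather than 96.8% held Osr2, while for Cdk1 it was 90.3% rather than 48.4%. With 5 cells in E9.5 embryo 1 and 2 embryos at E11.5, smaller differences than those called may not have been detectable.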
